A study of Mus musculus with 4 samples.

Results

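Nucleotide synthesis enzymes are the proteins that build purine and pyrimidine nucleotides, recycle free bases and nucleosides, and convert ribonucleotides into the deoxynucleotides used for DNA. The set comprised 35 genes, chosen by name from pathway knowledge but with earlier results of these data known. They were read from a deposited expression table of 47935 loci. Of the 35, 31 had a table row of their own. Pfas shared its row with the microRNA gene Mir3062, Pnp with its paralog Pnp2, and Nme1 and Nme2 with each other and with the readthrough gene Gm20390, so these 4 members were described from 3 shared rows and left out of medians and counts. The values came from MEL cells, a mouse erythroleukemia line, which is a transformed model of erythroid precursors and takes up an erythroid-like programme under dimethyl sulfoxide (DMSO). RNA depleted of ribosomal RNA was sequenced from 2 uninduced samples and 2 samples induced with 1.5% DMSO, all from the same line in the same base medium; the treatment's length is not given in the sources used here. Values are FPKM, that is, fragments divided by transcript length and by the library's mapped total, and read depth is unknown. Their sums were 1055861 and 1325806 in uninduced and 1246536 and 1100517 in induced samples, with 12151 to 12645 loci at 1 FPKM or more. No label states that the replicates came from separate cultures, so each p-value reflects only how far these samples spread, which may be technical.

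Purine nucleotides are assembled on phosphoribosyl pyrophosphate (PRPP) in a chain of reactions that ends at inosine monophosphate (IMP), from which AMP and GMP branch. The pyrimidine ring is made first and then attached to PRPP, giving UMP and, after phosphorylation, CTP. Ribonucleotide reductase and thymidylate synthase supply the deoxynucleotides for DNA replication, and salvage enzymes recover bases and nucleosides. Proliferating cells, including erythroid progenitors, draw heavily on these pathways, while terminal erythroid maturation ends in cells that no longer divide.

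The promoters of 5 members are shown because they contrast the CTP synthase paralogs, which moved in opposite directions, with a purine gene that fell steeply (Gart) and 2 genes of thymidine nucleotide synthesis whose upstream sequence holds the E-box CACGTG. Each is the 250 bases before a RefSeq transcription start on GRCm38.p6, 5′ to 3′ on the gene's strand, and none overlaps an annotated exon. Capitals mark CACGTG (an E-box of the kind bound by MYC-MAX) or CCAAT (the CCAAT box, or its reverse complement ATTGG). Ctps lies at chr4:120570277-120570526 on the minus strand and Ctps2 at chrX:162901921-162902170 on the plus strand, the latter before 1 of its several RefSeq starts and within the annotated gene. Gart lies at chr16:91646973-91647222, Dtymk at chr1:93801935-93802184 and Tyms at chr5:30073626-30073875, all on the minus strand.
Ctps: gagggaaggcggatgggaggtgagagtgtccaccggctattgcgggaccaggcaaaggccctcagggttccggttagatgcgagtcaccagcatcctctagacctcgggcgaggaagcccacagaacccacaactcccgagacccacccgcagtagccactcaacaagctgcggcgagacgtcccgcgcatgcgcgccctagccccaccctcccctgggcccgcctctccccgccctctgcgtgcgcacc
Ctps2: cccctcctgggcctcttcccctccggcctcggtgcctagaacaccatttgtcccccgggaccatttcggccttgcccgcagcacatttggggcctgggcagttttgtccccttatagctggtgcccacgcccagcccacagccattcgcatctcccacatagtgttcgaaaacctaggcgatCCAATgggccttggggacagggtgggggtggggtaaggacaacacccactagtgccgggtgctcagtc
Gart: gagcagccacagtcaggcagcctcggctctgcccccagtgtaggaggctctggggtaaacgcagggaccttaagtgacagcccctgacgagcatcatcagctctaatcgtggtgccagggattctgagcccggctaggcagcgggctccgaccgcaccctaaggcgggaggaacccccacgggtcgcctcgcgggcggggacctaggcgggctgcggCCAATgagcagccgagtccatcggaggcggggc
Dtymk: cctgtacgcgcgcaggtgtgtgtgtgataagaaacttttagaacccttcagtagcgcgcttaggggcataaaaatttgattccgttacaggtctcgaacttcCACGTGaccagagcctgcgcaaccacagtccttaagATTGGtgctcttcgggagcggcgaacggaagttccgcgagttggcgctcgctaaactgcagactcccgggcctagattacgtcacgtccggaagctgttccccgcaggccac
Tyms: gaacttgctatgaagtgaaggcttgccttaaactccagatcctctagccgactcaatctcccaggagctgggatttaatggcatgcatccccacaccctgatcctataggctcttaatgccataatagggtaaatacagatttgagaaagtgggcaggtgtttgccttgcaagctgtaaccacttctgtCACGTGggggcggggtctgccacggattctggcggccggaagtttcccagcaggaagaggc

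The printed Ctps stretch held none of the searched letters, while Ctps2 had a CCAAT 68 bases and Gart one 33 bases before the start. Dtymk had CACGTG 148 bases and ATTGG 112 bases before the start, and Tyms had CACGTG at 61 bases. Promoter windows of 300 bases, from 250 before to 50 after each start, were searched on both strands for 32 members. CACGTG, which is its own reverse complement, was found for 6 of them, or 18.8%, against 8.09% of all 27025 genes in the promoter table. The 6 were Atic, Dtymk, Impdh2, Nme1, Paics and Tyms. CCAAT was present for 14 members (43.8%) against 41.1% of all genes, and the GATA-type letters AGATAA for 6 (18.8%) against 12.7%. The 6 with AGATAA were Ctps, Gmps, Hprt, Nme2, Prps2 and Umps, with the match for Ctps outside its printed stretch. The E2F-type letters TTTCCCGC were found for 2 members, Ppat and Prps2, or 6.25% against 1.24% of all genes, and TTTGGCGC for none, against 0.585%. Of the 14 searched genes with a row of their own that fell, 2 held CACGTG (Atic and Dtymk) and 7 held CCAAT. These matches describe letters in a fixed window and not binding. The 27025 genes were not limited to expressed ones, so they are not matched to the members. No excess is read from these shares.

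After DMSO induction, 15 of the 30 members that could be tested were lower, 1 was higher and 14 did not pass the test. The steepest fall was that of Cad, which starts pyrimidine synthesis, to 15.1% of its uninduced mean, and the risen gene was Ctps2, to 176%. The tested set was every member with a row of its own except Prps2, and all 30 were at 1 FPKM or more in all 4 samples. Calls used limma on log2(FPKM + 1) across 12890 loci with a Benjamini-Hochberg adjusted p under 0.05. Among all those loci 14.7% were called lower and 11.5% higher; among the loci with a mean of at least 10 FPKM, a level chosen after seeing the data that 29 of the 30 members reached, 16.7% were called lower. The members' shares were 50% lower and 3.33% higher. Their median log2 fold change was -1.07, against 0.03 over all tested loci. In 21 of the 30 members both induced values lay under both uninduced values, which was so for 34.7% of all tested loci. These shares are descriptions, and nothing particular to the set is read from them.

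The calls depended on having all 4 samples. When any 1 sample was left out, most or all of the members' calls were lost. Calls over all 12890 tested loci also dropped steeply in each of these 4 fits, from 1899 lower and 1478 higher with all samples. The members' median log2 fold change then lay between -0.86 and -1.26. At an unadjusted p under 0.05, 17 members were lower without uninduced replicate 1, beside 19% of all tested loci, and 17 without uninduced replicate 2, beside 19.3%. The counts were 16 without induced replicate 1, beside 17% of loci, and 15 without induced replicate 2, beside 15.3%. The direction of the 16 called members could not turn in these 4 fits, since their groups did not overlap. With low loci kept in the fit none of the 16 passed (limma adjusted p from 0.0568 to 0.0818). Of all 26323 loci in that fit, 23 were called lower and 7 higher. At an unadjusted p under 0.05, 18 members were lower and 2 higher there, beside 13.2% and 12.7% of the loci. FPKM is relative to each library's total, of which globin transcripts made up more in the induced samples. Under 3 other scalings between 13 and 15 members were called lower, beside 1552 to 1964 of all 12890 tested loci. Prps1 (adjusted p = 0.0531) and Ppat (0.0589) were the ones lost when globins and the 10 most abundant loci were taken out of the totals, and Ppat (0.0501) was lost under quantile scaling. In bulk RNA, fewer cells that use a gene and less of its RNA in each cell cannot be told apart.

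**Figure D1:**
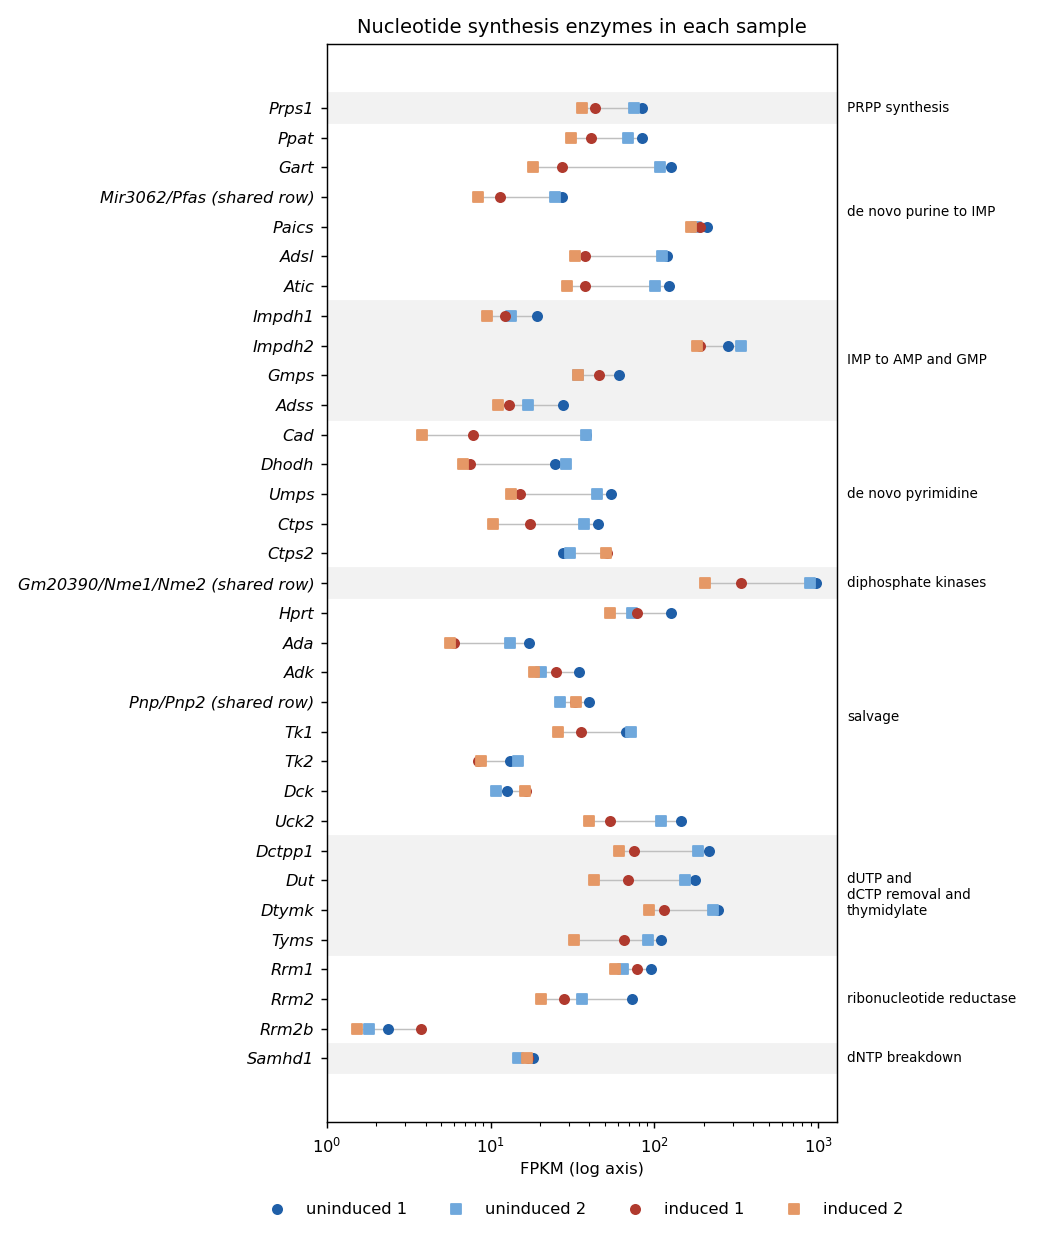
FPKM (log axis) of each enzyme in the 4 samples, with genes grouped by pathway step and 1 point per sample; grey lines join the lowest and highest value. The red and orange induced points lie left of the blue uninduced points for most genes, on the right for Ctps2 and Dck, and overlap them for Paics, Gmps, Hprt, Adk, Rrm1, Rrm2b, Samhd1 and the Pnp row; Prps2, listed at 0, is not drawn.

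Most erythroid markers were present in every sample, and markers of other lineages, apart from Ptprcap, were under 1 FPKM. Of 9 erythroid markers, 8 were above 1 FPKM in every sample, the exception being the band 3 gene Slc4a1, at 0.49 and 0.56 FPKM before induction. Summed erythroid marker FPKM was 1311 and 1721 in the uninduced and 58799 and 112434 in the induced samples, against at most 0.67 for 5 myeloid and 0.19 for 3 fibroblast markers. The lymphoid sum, at most 5.41, came mostly from Ptprcap. Replicate 1 exceeded replicate 2 for 25 of the 30 members among uninduced and 29 of 30 among induced samples, with median log2 differences of 0.26 and 0.35. Over all tested loci the shares were 56.7% and 46.3%. The part of this tilt in the results was not tested.

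PRPP synthetase supplies the activated ribose on which both pathways depend. Gene positions are on GRCm38. Prps1 (chromosome X, 140456613 to 140476140) measured 83.5 and 75.0 FPKM in the uninduced and 43.3 and 36.2 FPKM in the induced samples. The groups did not overlap, and the log2 fold change was -0.98 ± 0.20 (SE; limma adjusted p = 0.0274). Its paralog Prps2 (chromosome X, 167346322 to 167382749) was listed at 0 in all 4 samples. An exact 0 in such a table can be a failed estimate, so no statement is made on its expression and no comparison of the paralogs was possible.

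Transcripts of the chain that builds the purine ring fell at nearly every measured step. Of the 5 members with a row of their own, 4 fell, beside 14.7% of all tested loci called lower. The shared row of Pfas fell as well, and Paics alone did not pass. Ppat, the amidophosphoribosyltransferase that commits PRPP to purine synthesis (chromosome 5, 76913249 to 76951578), went from 84.0 and 68.9 FPKM to 41.1 and 31.1 FPKM (-1.07 ± 0.23, adjusted p = 0.0317). Gart, a trifunctional enzyme of 3 early reactions (chromosome 16, 91621186 to 91646952), had 126 and 108 FPKM before and 27.4 and 18.2 FPKM after induction. Its mean dropped to 19.5% of the uninduced level (-2.33 ± 0.26, adjusted p = 0.0128). The induced values of Gart were both far under the uninduced ones, with induced replicate 2 the lowest.

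Transcripts for later reactions also fell. The row of Pfas, the enzyme of the fourth reaction, held 27.3 and 24.6 FPKM in uninduced and 11.4 and 8.32 FPKM in induced samples (-1.32 ± 0.23, adjusted p = 0.0207). Adsl, the lyase used both in the chain to IMP and in the branch to AMP (chromosome 15, 80948490 to 80970946), measured 119 and 111 FPKM and then 37.9 and 32.6 FPKM (-1.68 ± 0.19, adjusted p = 0.0128). Atic, which closes the ring to IMP (chromosome 1, 71557150 to 71579631), measured 122 and 101 FPKM and then 37.9 and 29.1 FPKM (-1.71 ± 0.23, adjusted p = 0.0144). For both enzymes the 2 groups stood well apart, at 30.6% and 30.0% of the uninduced mean.

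Paics, the bifunctional enzyme that acts between Pfas and Adsl (chromosome 5, 76951307 to 76967509), was the exception. It measured 209 and 180 FPKM in uninduced and 190 and 167 FPKM in induced samples, so that the groups overlapped (-0.12 ± 0.21, limma adjusted p = 0.69). The 95% interval of its log2 fold change, -0.65 to 0.41, did not reach the change of any of the fallen enzymes of the chain, and its sign turned under quantile scaling (0.12). Ppat and Paics are head-to-head neighbours on opposite strands whose annotated 5′ ends overlap by 272 bases, and whether counting used strand was not given, so fragments from the overlap could be credited to either. The ratio of Ppat to Paics was 0.402 and 0.383 in uninduced and 0.216 and 0.186 in induced samples. This difference of -0.95 in the log2 ratio, examined after the values were seen, had an exact two-sided permutation p of 0.33, the smallest that 2 against 2 samples allow.

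**Figure D2:**
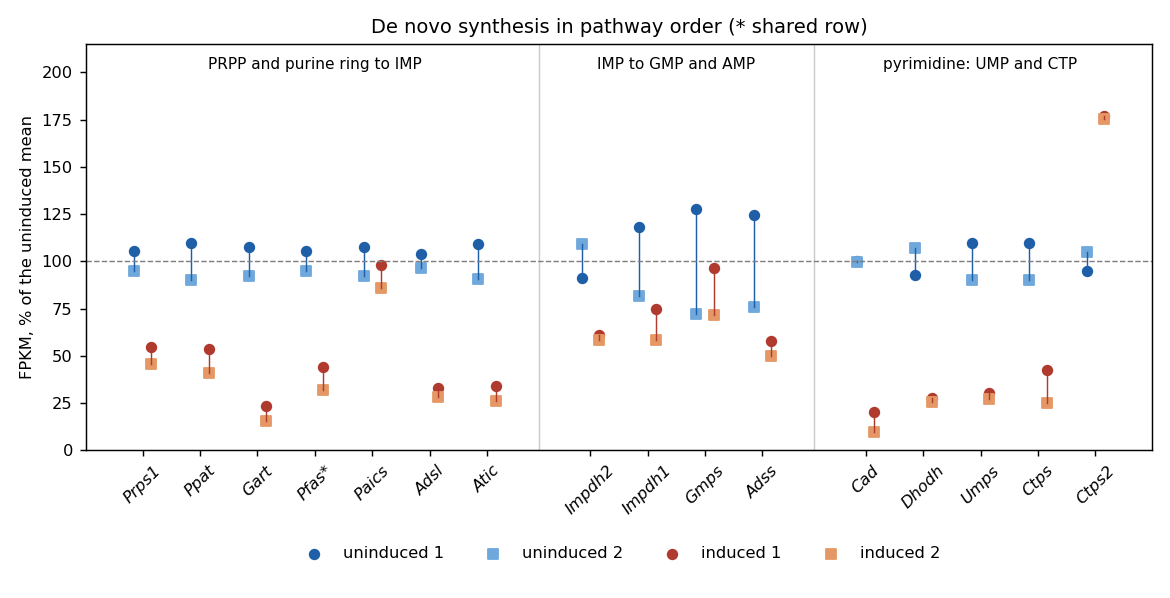
FPKM of the de novo enzymes in pathway order, each sample as a percentage of the gene's uninduced mean (dashed line at 100%). Gart and Cad lie lowest after induction, the induced points of Paics and Gmps overlap the uninduced ones, and Ctps2 stands at about 176%.

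The branch from IMP to AMP and GMP had no member past the limma threshold among 4 tested, although 2, Impdh2 and Adss, had an unadjusted p under 0.05, as 22.5% of all tested loci did in the lower direction. Impdh2, the main IMP dehydrogenase of proliferating cells and the most abundant gene of the branch (chromosome 9, 108560286 to 108565584), measured 283 and 339 FPKM in uninduced and 189 and 182 FPKM in induced samples. The groups did not overlap, and the log2 fold change of -0.74 ± 0.21 fell just short (limma adjusted p = 0.0577). Impdh1, its paralog (chromosome 6, 29200434 to 29216364), measured 19.2 and 13.3 FPKM and then 12.2 and 9.52 FPKM (-0.53 ± 0.26, adjusted p = 0.188). The log2 ratio of Impdh2 to Impdh1 differed by -0.21 between the groups (exact permutation p = 1), and its sign turned without uninduced replicate 2 (0.18). Impdh2 took most of the pair in every sample, with Impdh1 at 3.77% to 6.36% of their summed FPKM.

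Adss, which leads from IMP towards AMP, measured 27.6 and 16.8 FPKM and then 12.9 and 11.1 FPKM (-0.80 ± 0.29, adjusted p = 0.0975). Gmps, the GMP synthase, had 60.8 and 34.2 FPKM and then 45.8 and 34.0 FPKM (-0.20 ± 0.34, adjusted p = 0.672). Gmps differed more between uninduced replicates than between the group means, and its 95% interval of -1.06 to 0.66 still includes a 2-fold fall. A miss of the threshold therefore does not show that this branch was unchanged.

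All 3 genes of pyrimidine synthesis up to UMP fell, beside 14.7% of all tested loci called lower. Cad, the trifunctional protein of the first 3 reactions (chromosome 5, 31054780 to 31078479), measured 38.4 and 38.2 FPKM in uninduced and 7.76 and 3.79 FPKM in induced samples. Its uninduced values were nearly identical, and the fall of the mean was 6.63-fold (-2.60 ± 0.33, limma adjusted p = 0.0137). Dhodh, the mitochondrial dihydroorotate dehydrogenase (chromosome 8, 109591343 to 109608673), went from 24.9 and 28.7 FPKM to 7.43 and 6.81 FPKM (-1.77 ± 0.20, adjusted p = 0.0128). Umps, which makes UMP (chromosome 16, 33954782 to 33967038), went from 54.2 and 44.4 FPKM to 15.1 and 13.3 FPKM (-1.73 ± 0.21, adjusted p = 0.0128). Dhodh and Umps thus ended at 26.6% and 28.7% of their uninduced means, with tight induced replicates.

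The CTP synthases, which aminate UTP to CTP, went opposite ways. Ctps (chromosome 4, 120539868 to 120570276) measured 45.1 and 37.0 FPKM in uninduced and 17.45 and 10.3 FPKM in induced samples (-1.54 ± 0.30, adjusted p = 0.0254). Ctps2 (chromosome X, 162901238 to 163032508) measured 27.6 and 30.4 FPKM and then 51.4 and 50.9 FPKM (0.80 ± 0.18, adjusted p = 0.0348). Neither gene's groups overlapped, and both calls held under the 3 other scalings. The log2 ratio of Ctps to Ctps2 was lower by 2.34 after induction, and between 1.99 and 2.69 lower when 1 sample was left out (exact two-sided permutation p = 0.33 in the full data, the smallest possible).

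Together the pair stayed within overlapping levels while its makeup shifted. Ctps2 made up 37.9% and 45.1% of the summed FPKM of the pair in uninduced samples and 74.6% and 83.2% in induced samples. The sum itself was 72.7 and 67.5 FPKM before and 68.8 and 61.1 FPKM after induction, with overlapping groups (70.1 ± 3.70 against 65.0 ± 5.43, SD, n = 2 each; exact permutation p = 0.667). The sum and the share were examined after the values of both genes were seen.

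**Figure D3:**
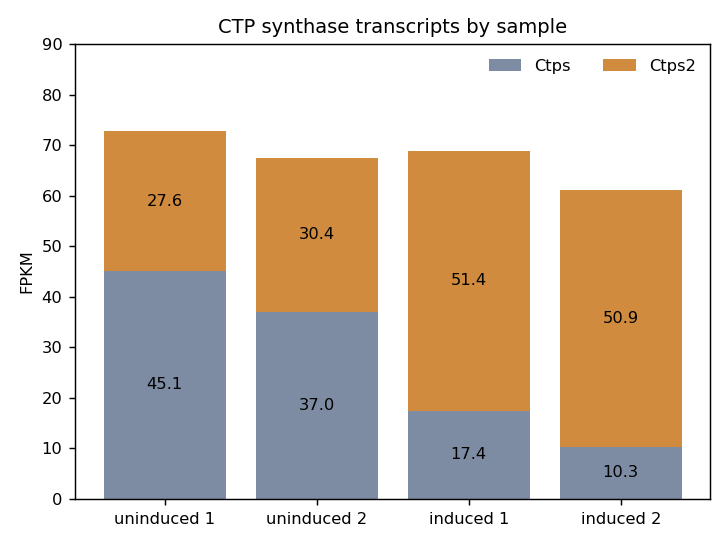
FPKM of Ctps (grey, bottom) and Ctps2 (orange, top) stacked in each of the 4 samples. The stacks reach 61.1 to 72.7 FPKM in all samples, and the Ctps2 part is the larger in both induced samples.

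Nucleoside diphosphate kinases, which transfer phosphate from ATP to the other nucleoside diphosphates, held the most abundant row of the set. The row shared by Nme1, Nme2 and Gm20390 on chromosome 11 had 972 and 889 FPKM in uninduced and 337 and 202.3 FPKM in induced samples (-1.83 ± 0.31, limma adjusted p = 0.0203). The groups stood far apart, but how the fall divides between Nme1 and Nme2 cannot be read from 1 row.

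Salvage enzymes split, with 3 of 7 members with their own row fallen and 4 not past the threshold. Among all tested loci 14.7% were called lower. Uck2, a uridine-cytidine kinase (chromosome 1, 167222883 to 167285320), was the most abundant of them in uninduced cells and went from 144 and 109 FPKM to 53.2 and 40.0 FPKM (-1.42 ± 0.25, adjusted p = 0.0213). Ada, adenosine deaminase (chromosome 2, 163726584 to 163750239), went from 17.2 and 13.2 FPKM to 6.0 and 5.68 FPKM (-1.23 ± 0.22, adjusted p = 0.0223). Tk1, the cytosolic thymidine kinase that peaks in S phase (chromosome 11, 117815526 to 117826092), went from 67.3 and 71.6 FPKM to 35.8 and 25.7 FPKM (-1.17 ± 0.23, adjusted p = 0.0258). In each of the 3 both induced values were well under the uninduced ones.

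In 3 further rows of purine salvage the uninduced replicates lay far apart. Hprt, which salvages hypoxanthine and guanine, measured 127 and 72.6 FPKM and then 78.3 and 53.9 FPKM (-0.56 ± 0.35, adjusted p = 0.277), and replicate 1 was the higher sample in each group. Adk, adenosine kinase, was at 34.7 and 20.3 FPKM and then 25.2 and 18.4 FPKM (-0.29 ± 0.32, adjusted p = 0.523). The row shared by Pnp and Pnp2, purine nucleoside phosphorylases, was at 39.8 and 26.4 FPKM and then 32.6 and 33.0 FPKM. All 3 had overlapping groups.

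The mitochondrial thymidine kinase and the deoxycytidine kinase were less abundant than Tk1 in every sample. Tk2, the mitochondrial thymidine kinase, measured 13.2 and 14.6 FPKM and then 8.34 and 8.68 FPKM (-0.64 ± 0.20, adjusted p = 0.0666). Dck, deoxycytidine kinase, measured 12.5 and 10.8 FPKM and then 16.5 and 16.2 FPKM (0.46 ± 0.20, adjusted p = 0.138); its induced values were both the higher ones. The log2 ratio of Tk1 to Tk2 was lower by 0.52 after induction (exact permutation p = 0.33), the smallest p that 2 against 2 samples allow.

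Of 4 enzymes that remove dUTP and dCTP or make and phosphorylate thymidylate, 3 fell (Dut, Dctpp1 and Dtymk) and Tyms did not pass. The share called lower among all tested loci was 14.7%. Dut, the dUTPase (chromosome 2, 125247190 to 125258608), went from 178 and 153 FPKM to 69.2 and 42.5 FPKM (-1.58 ± 0.29, limma adjusted p = 0.0223). Dctpp1, a dCTP pyrophosphatase (chromosome 7, 127256959 to 127260709), went from 216 and 183 FPKM to 75.0 and 60.9 FPKM (-1.54 ± 0.22, adjusted p = 0.0154). Dtymk, thymidylate kinase (chromosome 1, 93792576 to 93801934), went from 243 and 229 FPKM to 114 and 93.0 FPKM (-1.18 ± 0.21, adjusted p = 0.0211). These 3 were clearly separated between groups, at 33.8%, 34.1% and 44.0% of the uninduced mean.

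Tyms, thymidylate synthase (chromosome 5, 30058202 to 30073617), measured 110 and 91.9 FPKM in uninduced and 65.1 and 32.2 FPKM in induced samples. The groups did not overlap, but induced replicate 1 was about 2.02 times replicate 2 (-1.11 ± 0.37, adjusted p = 0.0799; 95% interval -2.05 to -0.18).

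Ribonucleotide reductase, which turns ribonucleoside diphosphates into deoxy forms, had no subunit past the limma threshold among 3. Of these, 1, Rrm2, had an unadjusted limma p under 0.05, as 22.5% of all tested loci did in the lower direction. Rrm1, the large subunit (chromosome 7, 102441695 to 102469771), measured 94.7 and 64.5 FPKM and then 78.4 and 57.2 FPKM (-0.22 ± 0.28, adjusted p = 0.585), with overlapping groups. Rrm2, the small subunit of S phase (chromosome 12, 24708241 to 24714146), measured 72.5 and 36.3 FPKM and then 27.9 and 20.3 FPKM (-1.08 ± 0.38, adjusted p = 0.0941). Both induced values of Rrm2 were under both uninduced ones, yet uninduced replicate 1 was far above replicate 2. Rrm2b, the p53-inducible small subunit, was low in every sample at 2.36 and 1.81 FPKM and then 3.74 and 1.52 FPKM (0.17 ± 0.36, adjusted p = 0.739).

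Rrm2 exceeded Rrm2b in every sample. Rrm2b was 3.15% and 4.75% of their sum before and 11.8% and 6.98% after induction. The log2 ratio of Rrm2 to Rrm2b was lower by 1.25 after induction, and that of Rrm2 to Rrm1 by 0.86 (exact permutation p = 0.33 each; the second was examined after the values were seen). Samhd1, which degrades deoxynucleoside triphosphates, measured 18.2 and 14.7 FPKM and then 17.0 and 16.6 FPKM (0.03 ± 0.20, adjusted p = 0.911; 95% interval -0.49 to 0.56). Neither a doubling nor a halving of Samhd1 lay within that interval.

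**Figure D4:**
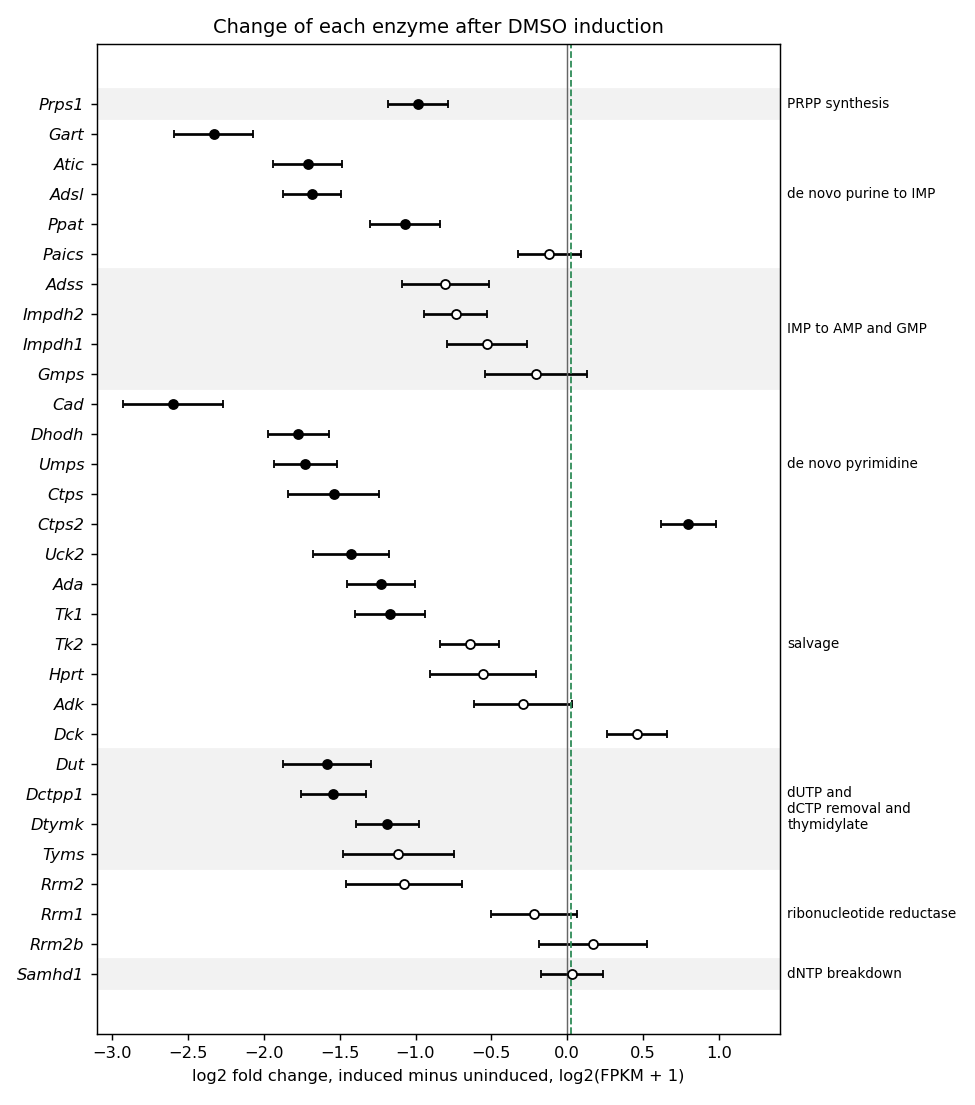
Log2 fold change (induced minus uninduced, on log2(FPKM + 1)) of the 30 tested members, grouped by pathway step; bars are ± 1 limma SE, filled points passed the adjusted p of 0.05 and the green dashed line is the median of all tested loci (0.03). Cad and Gart lie farthest left, and Ctps2 is the filled point right of 0.

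The 14 members that did not pass were not shown to be unchanged. For 9 of them the 95% interval extended beyond a 2-fold fall. The groups did not overlap for 7 of the 14, a smaller share than the 60.4% among all loci that did not pass, and nothing is read from it. Of the 30 tested members, 8 share exon bases with a gene on the opposite strand, from 48 bases in Impdh2 to 1014 in Gart, and their values could hold fragments of those genes if strand was not used in counting. The overlapping genes of Gart, Umps and Uck2 were at 2.90 FPKM or less in every sample.

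Other genes of nucleotide metabolism are read beside the same background of 14.7% of all tested loci lower and 11.5% higher. Of 66 listed genes, 59 had a row of their own and 41 passed the filter on low values, of which 13 were called lower and 3 higher. In 6 of the 41 some sample was under 1 FPKM. Of these, 4 were called lower: Nt5e, Slc28a2, Slc28a3 and Slc29a2. All 4 passed the filter only through their uninduced samples, so the filter partly set their direction. The 35 at 1 FPKM or more in all 4 samples had a median log2 fold change of -0.49, against -0.63 over the 41, and of these 35 genes 9 fell and 3 rose. Dctd, which deaminates dCMP to dUMP for thymidylate synthesis, fell most, from 30.1 ± 2.59 to 2.90 ± 1.98 FPKM (-3.09 ± 0.39, limma adjusted p = 0.0138). Nme6, a mitochondrial relative of the diphosphate kinases, went from 33.9 ± 6.24 to 8.62 ± 2.48 FPKM (-1.87 ± 0.27, adjusted p = 0.0163). Mtap, which salvages methylthioadenosine from polyamine synthesis, went from 12.5 ± 3.94 to 3.25 ± 0.290 FPKM (adjusted p = 0.020). The nucleoside transporter gene Slc29a2 was at 1.97 ± 0.255 and 0.220 ± 0.0424 FPKM. It passed the filter only through its uninduced samples, so its direction was partly set by the filter and no test is given.

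The risen genes were the following. Cda, cytidine deaminase, rose from 21.4 ± 2.53 to 39.0 ± 2.18 FPKM (0.84 ± 0.19, adjusted p = 0.037). Nme7 rose from 11.3 ± 2.55 to 24.1 ± 1.81 FPKM (1.04 ± 0.23, adjusted p = 0.0334). Nudt16, an inosine diphosphatase, rose from 4.31 ± 1.51 to 9.85 ± 0.969 FPKM (1.057 ± 0.28, adjusted p = 0.0474). The calls for Cda (0.052 with globins and the most abundant loci removed from the totals) and Nudt16 (0.0552 under quantile and 0.0586 under median-of-ratios scaling, 0.0543 with a pseudocount of 0.1) depended on these settings. When any 1 of the 4 samples was left out the 3 calls were lost, as were most higher calls over all tested loci.

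DNA replication genes are set beside the members as a gauge of S-phase transcripts. Of 36 tested, 10 were called lower (27.8%, beside 14.7% of all tested loci) and 0 higher (beside 11.5%), with a median log2 fold change of -0.56. Between 4 and 11 were lower and 0 higher under the 3 other scalings, beside 1552 to 1964 and 1385 to 1819 of all 12890 tested loci. At an unadjusted limma p under 0.05, 16 were lower, beside 22.5% of all loci, and 0 higher, beside 2662 of all 12890 tested loci. The 11 members that make, salvage or degrade deoxynucleotides had a median of -1.08 with 4 fallen, and the other 19 tested members had -1.07 with 11 fallen and 1 risen. Replicate 1 exceeded replicate 2 for 32 of the 36 replication genes among uninduced and 34 among induced samples. Whether the members and the replication genes differed was not tested, nor was the part of S-phase transcripts in the members' values.

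**Figure D5:**
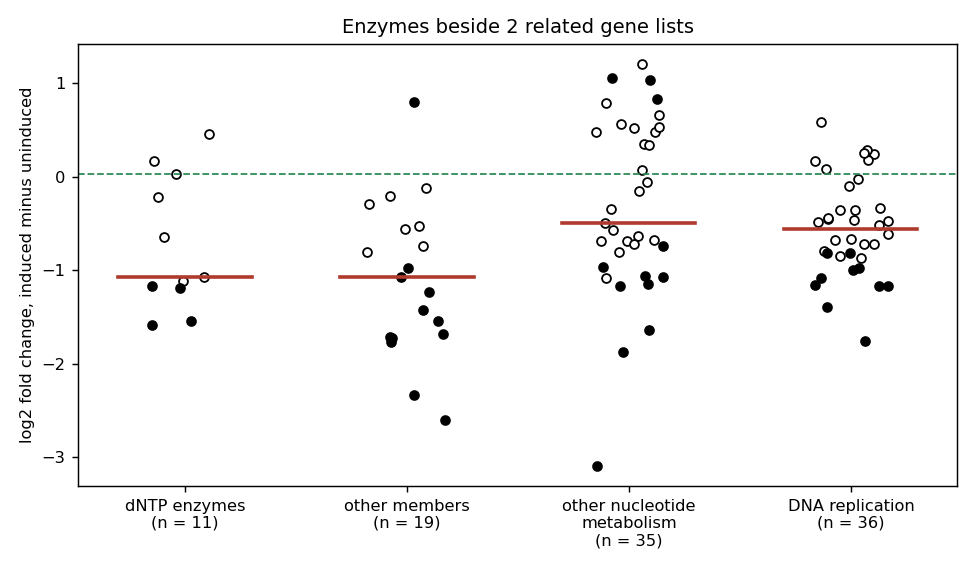
Log2 fold change of single genes in 4 sets: members handling deoxynucleotides, the other members, other nucleotide metabolism genes (the 35 at 1 FPKM or more in all 4 samples) and DNA replication genes. Filled points passed the adjusted p of 0.05, red lines are medians (-1.08, -1.07, -0.49 and -0.56) and the green dashed line is the median of all tested loci.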

How the data were processed

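The 4 RNA-seq libraries of MEL cells, 2 uninduced and 2 DMSO-induced, were compared. TopHat2 and the GRCm38 build are named per the submitters' processing notes, while a quantifier, annotation release, strandedness and depth are not given in the sources used here and remain unknown. The deposited table gives FPKM with 1 column per sample; the unit was inferred from the values and from the Cufflinks-style columns, per the file headers. No counts were given, so the precision of single values is unknown and no count test was run. From these values log2(FPKM + 1) was computed for 12890 loci reaching 1 FPKM in 2 or more samples and fitted with limma 3.58.1 in R 4.3.3 (eBayes with trend, group as the only term), with Benjamini-Hochberg adjustment over all loci at 0.05. The fit was tested on simulated data. Fold changes on this scale understate those of low genes. Where a symbol had several rows (Dut among the members, Ak9 and Slc28a3 among the other nucleotide genes), the row with the highest mean was used.

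Ratios between paralogs were compared with exact permutation tests over 6 arrangements. The members and gene lists were chosen with earlier results of these data known. The rule for named genes took all members, with values in every sample for those that passed, paralog pairs and the most abundant of each step (extended to the rest after the values were seen), and up to 4 of the largest called changes in each direction among other nucleotide genes. Gene positions and exons are from GENCODE M21 (GRCm38) and promoters from RefSeq (GRCm38.p6). Of the 35 members 32 matched a promoter entry. Alternatives were 3 scalings, 2 filters, leaving out each sample, shared or summed rows, a replicate block and a pseudocount of 0.1.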

Additional observations from a re-analysis of the deposited data

How the results depend on the processing

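The members' median log2 fold change stayed between -0.86 and -1.26 under every alternative. The 16 called members kept their direction under the 3 other scalings. The other filters, the pseudocount, the replicate block and leaving out a sample could not turn it, since the groups of these members did not overlap. For summed rows only the median was computed. Calls depended on the filter: with low loci kept, limma called 0 members lower and 0 higher (18 and 2 at an unadjusted p under 0.05, beside 3475 and 3338 of 26323 loci; adjusted p of the 16 from 0.0568 to 0.0818), 0 and 0 of the other nucleotide metabolism genes, 0 replication genes lower, and 23 lower and 7 higher of all loci. When 1 sample was left out, 0 to 3 members were called lower and 0 to 0 higher, 0 to 1 and 0 to 0 of the other nucleotide metabolism genes, 0 to 1 replication genes lower, and 14 to 306 lower and 0 to 180 higher of all loci; the group left with a lone sample is assumed to vary like the other. With a 5 FPKM filter 7 of the other nucleotide metabolism genes were lower, fewer of them being tested, beside 1495 of 9061 loci. Under quantile scaling 5 were higher, beside 1819 of 12890 loci. Replication genes called lower numbered 6 under quantile scaling, beside 1692 of 12890 loci. With globins and the 10 most abundant loci out of the totals they numbered 4, beside 1552. The cause was not tested.

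Signs turned only for values that did not pass. Under quantile scaling these were Paics (0.12) and Rrm1 (0.0274), and under median-of-ratios scaling the row of Pnp and Pnp2 (-0.0235) and Samhd1 (-0.00201). When 1 sample was left out, Gmps ranged from -0.61 to 0.20, Adk from -0.66 to 0.0787, Rrm1 from -0.49 to 0.0538, the row of Pnp and Pnp2 from -0.27 to 0.30, Rrm2b from -0.29 to 0.63, Samhd1 from -0.11 to 0.18 and the difference of Impdh2 against Impdh1 from -0.59 to 0.18.

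The replicate numbers are not stated to pair the samples; deviations of same-numbered samples correlated at 0.17 across loci. With a replicate block 17 members were called lower and 1 higher, beside 2299 and 1939 of all 12890 tested loci. Without the block these were 1899 and 1478 loci. The 2 added members were Tyms (-1.11, limma adjusted p = 0.0371) and Rrm2 (-1.08, 0.0302), and all 16 calls of the fit without the block were kept.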
